A study of Bos taurus with 18 samples.

Results

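TNF, IL6, IL10 and IL15 are 4 cytokine genes of immune cells, followed here in the milk cells of dairy cows. They were found by gene symbol in the platform's table of probe sets, where a probe set is the group of oligonucleotides that reads 1 transcript. Each gene had exactly 1 probe set, so 4 of the 24016 probe sets that are not controls were members. The platform table gives them the Entrez gene numbers 280943 for TNF, 280826 for IL6, 281246 for IL10 and 281248 for IL15. They are 4 of the 9155 genes that could be named. No position in the genome is given, because no build is named for the probe sets.

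RNA came from cells spun out of the milk of 18 dairy cows (Bos taurus): 6 healthy, 6 with mastitis, an inflamed udder, and 6 with endometritis, an inflamed uterine lining. Each cow gave 1 Affymetrix bovine genome array, so a replicate is a cow. Healthy cows were free of clinical signs, with milk cell counts under 100000 per ml, and most were sampled 10 to 100 days after calving. The labels give them an age of 2 to 4 years and lactations from the 1st to the 8th, statements that cannot both hold for every cow. Both diseased groups were in lactations 1 to 8 and were sampled 10 to 220 days after calving, with no age given. No breed, pathogen or treatment is named. Animals came from farms and from university clinics, so stage of lactation, age and place can differ between the groups.

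TNF is a cytokine made early in infection, chiefly by macrophages, which switches on NF-kappaB in the cells that bind it. IL6 is made by macrophages, epithelium and fibroblasts, and acts through STAT3 to induce acute phase proteins. IL10 also acts through STAT3, but restrains the making of inflammatory cytokines by macrophages. IL15 supports the survival and growth of NK cells and memory T cells, and is usually presented on the surface of the cell that makes it. Milk of a healthy udder holds macrophages, lymphocytes and shed epithelium, and an inflamed udder fills with neutrophils.

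IL15 was the member that differed between groups by the test. Its signal was higher in mastitis than in healthy milk cells and higher than in endometritis. TNF read almost the same on average in mastitis and healthy cows, IL6 left background on 5 of 6 mastitis arrays without passing the test, and IL10 varied widely within mastitis and endometritis. None of the 4 passed in endometritis against healthy. The receptor genes of these cytokines that were measured rose in mastitis, although 3 of the 4 cytokines did not pass.

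All values are on the log2 scale as deposited, where 1 unit is a 2-fold difference. On these arrays the unexpressed probe sets pile up at the low end, and the median of all values, 2.55, was taken as the floor. A value at or under it was read as background. By that rule TNF and IL10 were above the floor on all 18 arrays, IL15 on 17 and IL6 on 7, so that 61.1% of the arrays were at the floor for IL6 and 5.56% for IL15. As the floor is the median of all values, as many values lie above it as under it by construction. Of all probe sets, 25.1% were at the floor on all 18 arrays. That share counts probe sets and cannot be set against the shares of arrays. Probe sets differ in how strongly they bind, so the levels of the 4 genes are not set against each other.

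**Figure D1:**
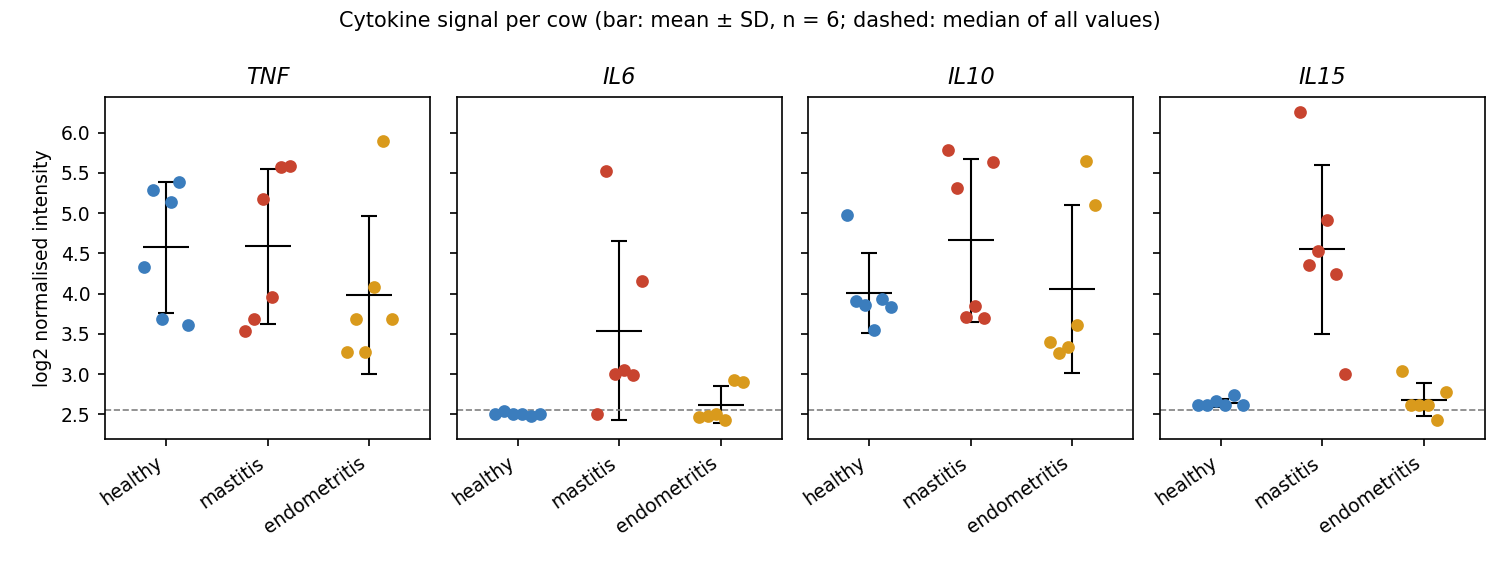
Each point is 1 cow, the vertical axis is the log2 normalised intensity, the bars are the mean ± SD of 6 cows, and the dashed line is the floor at 2.55. All 6 mastitis arrays lie above all 6 healthy arrays for IL15, IL6 leaves the floor on 5 mastitis arrays, and TNF and IL10 spread widely within groups.

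TNF was above the floor in every cow. In healthy cows it ran from 3.61 over a median of 4.73 to 5.39, and in mastitis from 3.54 over 4.56 to 5.58. These ranges lay on top of each other, and 3 of 6 mastitis arrays were above the healthy mean. The means were 4.57 ± 0.81 (SD, n = 6) and 4.59 ± 0.96, a difference of 0.01 ± 0.52 (SE) with a 95% interval from -1.10 to 1.12. The adjusted p of limma was 1, and the sign of so small a difference turned in several other fits. That interval is wide enough to hold a difference of 1 unit in either direction.

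Within each group TNF took high and low values. Healthy 2, 4 and 5 read 5.29, 5.14 and 5.39, while healthy 3 and 6 read 3.69 and 3.61. Mastitis 3, 5 and 6 read 5.17, 5.58 and 5.58, while mastitis 1, 2 and 4 read 3.54, 3.69 and 3.96. No healthy or mastitis array lay between 4.33 and 5.14. In endometritis TNF ran from 3.27 over a median of 3.68 to 5.89, and endometritis 5 alone was above the healthy mean. Endometritis 1 and 3 shared the lowest value, 3.27, without rounding, as healthy 3 and endometritis 2 shared 3.69. Whether such a value is the background of this probe set was not tested. The endometritis mean was 3.98 ± 0.98, lower than the healthy mean by 0.59 ± 0.52 without passing (adjusted p = 0.925). Mastitis exceeded endometritis in TNF by 0.60 ± 0.52, which did not pass either (adjusted p = 0.512). That difference was 0.99 without endometritis 5 and 1.07 with array weights, and passed in neither fit.

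IL6 was at background in all 6 healthy cows, with values from 2.48 over a median of 2.50 to 2.54. In mastitis it ran from 2.51 over 3.03 to 5.52. Mastitis 2 read 5.52 and mastitis 6 read 4.16, mastitis 3, 4 and 5 lay close together at 3.00, 3.05 and 2.99, and mastitis 1 stayed at the floor at 2.51. So 5 of 6 mastitis arrays were above every healthy array. The difference was 1.03 ± 0.37 (n = 6 and 6), with a 95% interval from 0.24 to 1.82. Because the healthy arrays were all at background, no exact fold can be given. The mastitis mean was 1.98-fold above the floor and 1.40-fold above the floor raised by 0.5. Neither is a strict lower bound, because 1 mastitis array was at the floor and 4 were at the raised floor. The call was not made (limma adjusted p = 0.0651, unadjusted p = 0.0139). An exact two-sided permutation test over the 924 ways of splitting these arrays gave an unadjusted p of 0.00433.

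The IL6 result rested on single arrays. Without mastitis 2 the difference was 0.64 (adjusted p = 0.0506), and without mastitis 1 it was 1.24 and passed (adjusted p = 0.0293). It also passed with dim probe sets left out (adjusted p = 0.0295) and with array weights (adjusted p = 0.0283).

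In endometritis IL6 was at the floor in 4 of 6 cows. The values ran from 2.43 over a median of 2.49 to 2.93, and endometritis 5 and 6, at 2.93 and 2.90, were the arrays above it. The difference from healthy was 0.11 ± 0.37 (adjusted p = 1). That SE uses the spread of all 3 groups, and in the fit of the 12 arrays compared it was 0.092 (adjusted p = 0.85). Mastitis exceeded endometritis by 0.92 ± 0.37, with 5 of 6 mastitis arrays above every endometritis array, and this did not pass in limma (adjusted p = 0.121), while the unadjusted exact permutation p was 0.013. Without mastitis 2 that difference was 0.52.

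IL10, the cytokine that restrains macrophages, was above the floor in every cow. Healthy arrays ran from 3.54 over a median of 3.88 to 4.97, and mastitis arrays from 3.70 over 4.58 to 5.78. The mastitis arrays fell into a high and a low set. Mastitis 1, 2 and 6 read 5.78, 5.32 and 5.64 and were above every healthy array, whereas mastitis 3, 4 and 5 read 3.70, 3.84 and 3.70, inside the healthy range. The means were 4.66 ± 1.02 and 4.01 ± 0.49 (SD, n = 6), a difference of 0.66 ± 0.50 with a 95% interval from -0.41 to 1.72 (adjusted p = 0.436). It was 0.22 with a GAPDH measure of RNA integrity as a covariate and 0.43 without mastitis 1, and passed in neither fit. Endometritis arrays ran from 3.26 over a median of 3.50 to 5.64. Endometritis 5 and 6, at 5.64 and 5.10, stood above the other 4, which reached 3.61. The difference from healthy was 0.05 ± 0.50 (adjusted p = 1) and its sign turned in several other fits, and mastitis exceeded endometritis by 0.61 ± 0.50 (adjusted p = 0.496).

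IL15, the lymphocyte survival factor, gave the clearest separation of the 4. Healthy arrays lay in a band from 2.62 to 2.74 with a median of 2.62, and endometritis arrays ran from 2.43 over 2.62 to 3.04. Mastitis arrays ran from 3.01 over 4.44 to 6.25, with mastitis 1 highest at 6.25 and mastitis 6 lowest at 3.01. The other mastitis arrays, 2, 3, 4 and 5, read 4.35, 4.53, 4.91 and 4.25. Every mastitis array was above every healthy array, a pattern that 6.22% of the probe sets tested also showed, and 5 of 6 were above every endometritis array. Endometritis 1, at 3.04, was the exception.

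IL15 rose by 1.91 ± 0.35 in mastitis against healthy (n = 6 and 6, 95% interval 1.16 to 2.65), a 3.75-fold difference with a limma adjusted p of 0.00135. Against endometritis it rose by 1.87 ± 0.35 (3.65-fold, adjusted p = 0.00231), from means of 4.55 ± 1.05 and 2.68 ± 0.21 (SD). The unadjusted exact permutation p was 0.00216 for the first, the smallest that 6 against 6 can give, and 0.00433 for the second. Both calls held in all 18 fits that left out 1 array and under the 8 other settings of the fit, with adjusted p from 0.000134 to 0.0387 and from 0.000188 to 0.021. Endometritis and healthy differed in IL15 by 0.04 ± 0.35 (adjusted p = 1), and the sign of that difference turned in some fits. That SE uses the spread of all 3 groups, mastitis included. In the fit of the 12 arrays compared it was 0.085, and the difference did not pass there either (adjusted p = 0.939).

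The healthy level of IL15 is close to background. Healthy 1, 2, 4 and 6 and endometritis 2, 3 and 4 all read 2.62 when rounded to 2 decimals, just above the floor of 2.55. On 6 of these arrays, healthy 1, 2 and 4 and endometritis 2, 3 and 4, the value was the same without rounding. Whether that shared value is the background of this probe set was not tested. With the floor raised by 0.5, all 6 healthy, all 6 endometritis and 1 mastitis array were at background. The mastitis mean was 2.82-fold above that raised floor, which is no strict lower bound because of that mastitis array. The 3.75-fold and 3.65-fold values rest on reading 2.62 as a measured level.

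Read against the whole array, 1 of the 4 cytokines was called higher in mastitis than in healthy, where limma called 10.2% of the 24016 probe sets higher and 19.5% in either direction. In mastitis against endometritis 1 of 4 was called higher, beside 7.99% of all probe sets higher and 14.5% in either direction. In endometritis against healthy 0 of 4 were called, and limma called 0 of all probe sets (percent called 0), with 1047 probe sets (4.36%) at an unadjusted p under 0.05. The smallest unadjusted p among the 4 there was 0.274, for TNF, and the smallest exact permutation p was 0.297.

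Whether the cytokines changed by unequal amounts was tested within arrays, by the exact permutation test of the difference between 2 members (6 pairs in 3 comparisons, 18 tests). None of the 18 passed after adjustment. The IL15 change in mastitis against healthy exceeded that of TNF by 1.89, with an unadjusted p of 0.0455 (adjusted 0.487), and that of IL10 by 1.25 (unadjusted p = 0.0541, adjusted 0.487). It exceeded that of IL6 by 0.87 (unadjusted p = 0.29, adjusted 0.522). A difference in response between the members was therefore not shown.

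The cows also differed in which cytokine was high. Mastitis 1 had the highest IL10 and IL15 of its group, and the lowest TNF and IL6. Mastitis 6 had the highest TNF and the lowest IL15 of its group, with IL10 and IL6 second highest. Mastitis 3 and 5 had high TNF with low IL10, and mastitis 2 had high IL6 and IL10 with low TNF. In endometritis, cow 5 had the highest TNF, IL6 and IL10 and the lowest IL15. These are orders within 6 animals and carry no test.

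Markers of some cell types differed between mastitis and healthy arrays. The mean log2 level of 11 measured neutrophil genes ran from 4.28 to 5.84 on healthy arrays, 3.81 to 6.08 on endometritis arrays and 7.08 to 8.23 on mastitis arrays. Of these, 7 rose in mastitis against healthy, 0 fell and 4 did not pass, and MPO, a granule enzyme made by neutrophil precursors, was at the floor on all 6 mastitis arrays. The 10 mammary secretory genes ran from 11.8 over a median of 12.9 upwards on healthy arrays and from 5.95 over 7.01 to 9.88 on mastitis arrays, and 9 of 10 fell. The 7 macrophage genes overlapped, from 4.21 to 7.10 on healthy and 5.85 to 7.99 on mastitis arrays, with 0 of 7 passing, and the 9 T cell genes, from 2.98 to 5.38 and 2.74 to 5.12, also had 0 passing. Of 7 NK and cytotoxic genes 2 rose, with levels from 2.63 to 3.44 on healthy and 2.62 to 4.33 on mastitis arrays. These counts stand beside 11.3% of all 9155 genes called higher and 15.8% lower in mastitis against healthy. GAPDH is read by control probe sets at both ends of its transcript, and the excess of the 3′ over the 5′ signal, which grows as RNA breaks down, was 0.88 ± 0.40 (SD) on healthy, 0.39 ± 0.23 on mastitis and 0.58 ± 0.25 on endometritis arrays. With it as a covariate IL15 rose by 1.62 ± 0.43 in mastitis against healthy (adjusted p = 0.0387). The part of cell numbers in these differences was not tested, and in a mixture of cells more cells of a type cannot be told apart from more RNA per cell.

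Within groups, TNF and IL10 were set against the macrophage and neutrophil levels. IL6 and IL15 were set against them in mastitis alone. There IL15 was above the floor on every array, and IL6 on all but mastitis 1. These 16 relations were chosen after the values were seen. With 6 arrays and the exact permutation test over 720 pairings, 4 had an unadjusted p under 0.05 and 0 passed after adjustment. The lowest was that of IL10 with the macrophage level in endometritis, with Pearson's r = 0.94 (exact permutation p = 0.00417, adjusted 0.0667) and Spearman's rho = 0.94 (exact p = 0.0167, adjusted 0.187). Without the 2 arrays farthest from the median macrophage level r was 0.99. In mastitis the same relation had r = -0.69 (exact permutation p = 0.204, adjusted 0.38) and rho = -0.49 (exact p = 0.356, adjusted 0.517), and r was 0.11 without the 2 farthest arrays, so its sign rested on those. In healthy cows r was 0.59 (exact permutation p = 0.214, adjusted 0.38), rho was 0.49 (exact p = 0.356, adjusted 0.517) and r was 0.38 without the 2 farthest. IL10 and the neutrophil level had r = 0.97 in healthy cows (exact permutation p = 0.00972, adjusted 0.0778). That r was 0.67 in mastitis and 0.63 in endometritis (adjusted exact permutation p = 0.343 for both). Without the 2 arrays farthest from the median neutrophil level it was 0.43 in healthy, -0.14 in mastitis and 0.98 in endometritis. The remaining relations with an unadjusted p under 0.05 were of TNF. With the neutrophil level in mastitis r was -0.85 (exact permutation p = 0.0444, adjusted 0.178), and -0.997 without the 2 farthest arrays. With the macrophage level in endometritis r was 0.80 (exact permutation p = 0.0389, adjusted 0.178), and 0.21 without the 2 farthest.

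Array by array, endometritis 5 combined IL10 at 5.64 with a macrophage level of 8.05, endometritis 6 had 5.10 and 7.14, and healthy 1 had 4.97 and 7.10. Mastitis 3 and 5, with macrophage levels of 7.99 and 7.96, had IL10 at 3.70 and 3.70. A high macrophage level was therefore seen both with high and with low IL10.

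**Figure D2:**
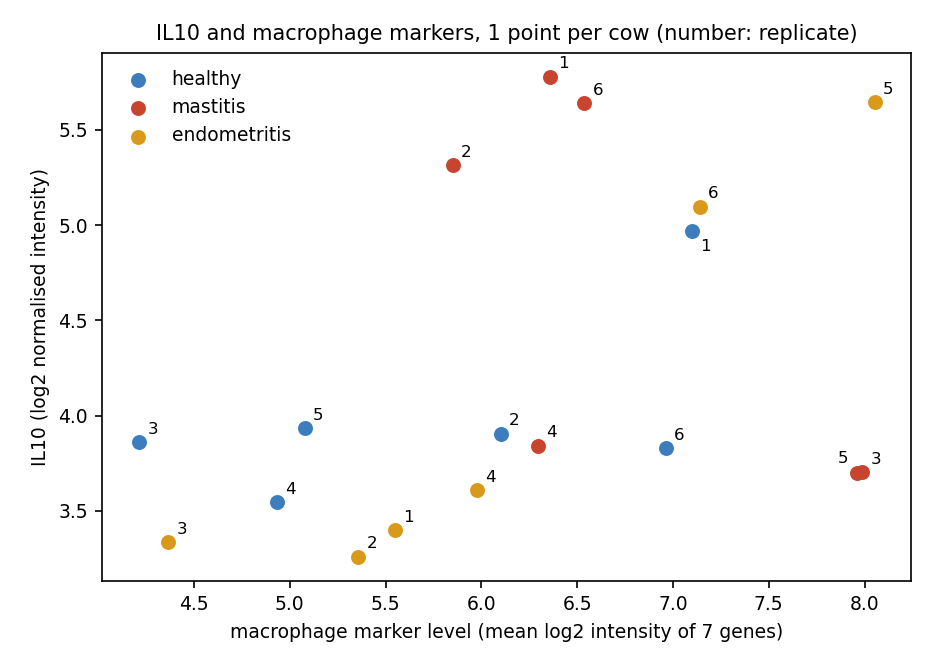
Each point is 1 cow, labelled by its replicate number, with the macrophage marker level (mean log2 intensity of 7 genes) across and IL10 (log2 normalised intensity) up. Endometritis 5 and 6 and healthy 1 lie at the upper right, while mastitis 3 and 5, with macrophage levels of 7.99 and 7.96, lie at the lower right.

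The receptor genes were read as the other side of the signal. Their RNA in mixed milk cells does not show which cells can respond. Of the 9 receptor chains looked for, 6 were measured, and IL6ST, IL15RA and IL2RB had no probe set under those names. All 6 measured chains rose in mastitis against healthy and against endometritis, beside 11.3% and 9.14% of the 9155 genes read at 1 probe set each. None passed in limma in endometritis against healthy, where 0 of all genes were called.

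TNFRSF1A, the TNF receptor found on most cells, ran from 5.64 over a median of 6.23 to 7.56 on healthy arrays and from 8.43 over 9.60 to 10.4 on mastitis arrays. The groups did not overlap, and TNFRSF1A rose by 3.24 ± 0.45 (9.45-fold, limma adjusted p = 0.000194). Of all probe sets, 6.22% had every mastitis array above every healthy array. TNFRSF1B, the TNF receptor of leukocytes, was near background on healthy arrays, at 2.69 over 3.03 to 3.30, and reached 3.71 over 5.28 to 6.16 in mastitis. It rose by 2.05 ± 0.34 (adjusted p = 0.000673). So both receptors of TNF rose while TNF itself differed by 0.01.

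IL6R, the chain that binds IL6, ran from 2.53 over 2.73 to 3.40 on healthy arrays, 1 of them at the floor, and from 4.49 over 6.14 to 6.72 on mastitis arrays. It rose by 3.03 ± 0.38 (adjusted p = 9.20e-05), at both of its probe sets. No fold is given, because the healthy levels are close to the floor. The healthy and mastitis arrays did not overlap, as for 6.22% of all probe sets.

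Both chains of the IL10 receptor rose by similar amounts. IL10RA, the binding chain, went from 3.22 over 3.87 to 5.18 on healthy arrays to 6.68 over 7.34 to 7.58 on mastitis arrays, a rise of 3.11 ± 0.55 (adjusted p = 0.001). IL10RB, which IL10 shares with other cytokines, rose by 3.12 ± 0.53 (adjusted p = 0.000809), from 4.62 over 5.45 to 7.07 to 7.80 over 8.68 to 9.86. Neither gene overlapped between the groups, beside 6.22% of all probe sets with every mastitis array above every healthy array.

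IL2RG, the common gamma chain through which IL15 and related cytokines signal, rose by 1.80 ± 0.39 (adjusted p = 0.00381). Healthy arrays ran from 4.34 over 4.81 to 6.00 and mastitis arrays from 6.19 over 6.68 to 7.70. These did not overlap either, as for 6.22% of all probe sets. This call was lost with the GAPDH difference as a covariate (adjusted p = 0.112), while the other 5 chains kept theirs under that setting, under the 7 other settings of the fit and without any 1 array.

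Against endometritis the rises of the 6 chains ran from 1.60 ± 0.39 for IL2RG (adjusted p = 0.0108) to 3.16 ± 0.45 for TNFRSF1A (adjusted p = 0.000304). In endometritis against healthy they ran from 0.08 ± 0.45 for TNFRSF1A to 0.58 ± 0.55 for IL10RA, with adjusted p from 0.925 to 1. Both sets of comparisons share the endometritis arrays.

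**Figure D3:**
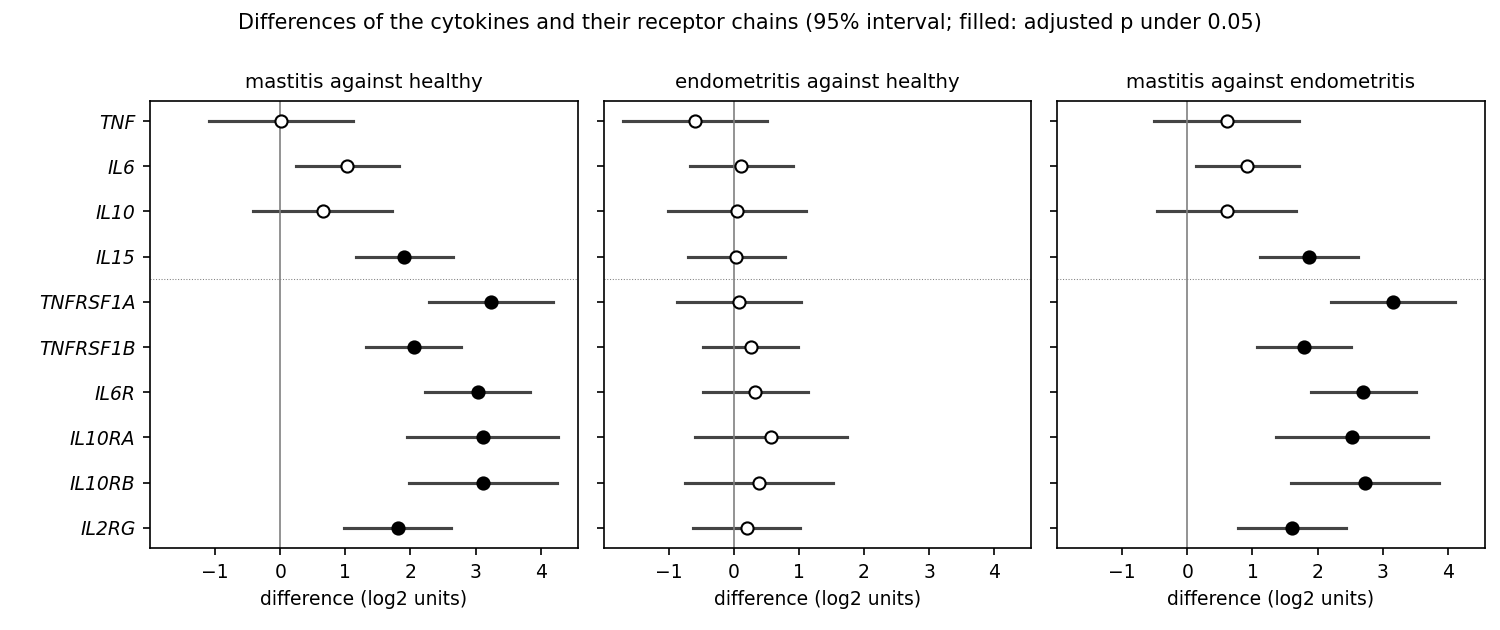
Points are differences between group means in log2 units and lines their 95% intervals from limma, for the 4 cytokines (above the dotted line) and 6 receptor chains. Points are filled where the adjusted p is under 0.05, as for IL15 (1.91) and all 6 receptor chains in mastitis against healthy, and none is filled in endometritis against healthy.

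Further along the 4 pathways, 45 of 70 listed genes were measured, a gene in several lists counted once. The lists were chosen with earlier results of these data known, so their counts are a description and no test. The IL6 and IL10 lists share genes such as STAT3 and SOCS3, so their separate counts below overlap. In mastitis against healthy 30 were called higher, 1 lower and 14 did not pass, beside 11.3% of all 9155 genes called higher and 15.8% lower. The median difference was 2.01, and -0.01 over all genes. With the GAPDH covariate 22 rose and 0 fell. Against endometritis 30 rose, 0 fell and 15 did not pass, with a median of 1.83, beside 9.14% of all genes higher and 10.9% lower. In endometritis against healthy limma called 0 of 45, with a median of 0.06.

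In the TNF list 11 of 17 measured genes were called higher and 1 lower in mastitis against healthy, with a list median of 2.01. IKBKB, a kinase that frees NF-kappaB, rose by 2.93 ± 0.29 (adjusted p = 1.90e-05), and the NF-kappaB subunit NFKB1 by 3.10 ± 0.41 (adjusted p = 0.000129). TNIP1, which holds NF-kappaB signalling back, was 3.57 ± 0.38 higher (adjusted p = 3.10e-05, 2 of 3 probe sets). LTB, a membrane-bound relative of TNF named after its value was seen, rose by 3.12 ± 0.67 (1 of 2 probe sets), and its call was lost with the GAPDH covariate (adjusted p = 0.101). LTA, the closest relative of TNF, was at the floor on all healthy and mastitis arrays. The gene called lower was LITAF, named after its value was seen. Its difference was -0.10, with all 6 mastitis and 3 healthy arrays at the floor and both means under it, so no fold is given, and the call was lost in 15 of 18 fits that left out 1 array. NFKBIA, the NF-kappaB inhibitor, was 2.13 ± 0.77 higher without passing (adjusted p = 0.0644).

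Against endometritis 12 of the 17 TNF list genes rose and 0 fell. TNFAIP6, a hyaluronan-binding protein that TNF induces, rose by 4.47 ± 0.63 (adjusted p = 0.000291), IKBKB by 2.69 ± 0.29 and TNIP1 by 3.70 ± 0.38. NFKBIA, named here after its value was seen, passed in this comparison, at 2.71 ± 0.77 (adjusted p = 0.0252), a call lost in the fit of the 12 arrays compared and in 5 of 18 fits that left out 1 array. TNFAIP6 had 2 probe sets, and both passed.

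In the IL6 list 8 of 12 measured genes rose and 0 fell in mastitis against healthy, with a median of 1.80. Against endometritis 8 rose and 0 fell, with a median of 1.70. STAT3, the transcription factor that IL6 and IL10 activate, rose by 2.24 ± 0.35 in mastitis against healthy (adjusted p = 0.000418, both probe sets). SOCS3, the feedback inhibitor of the IL6 receptor, was at the floor on 5 of 6 healthy arrays and rose in mastitis (adjusted p = 3.75e-05, 1 of 2 probe sets). Its fitted difference of 2.33 ± 0.25 is measured from near background and is no exact size. CEBPB, a transcription factor that induces acute phase genes, rose by 4.05 ± 0.51 (1 of 2 probe sets). JAK1, the kinase bound to the IL6 and IL10 receptors, read 9.85 in both groups (difference 0.00 ± 0.28, adjusted p = 1). LIF, a relative of IL6, was at the floor on all 6 mastitis arrays. OSM, another relative, was at the floor on all healthy arrays and on 2 mastitis arrays, and did not pass (adjusted p = 0.241).

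In the IL10 list 11 of 12 measured genes rose in mastitis against healthy, and JAK1 was the one that did not pass. IL1RN, the natural blocker of the IL1 receptor, rose by 3.53 ± 0.54 (adjusted p = 0.00036). ETS2, a transcription factor of macrophages, rose by 4.36 ± 0.46 (adjusted p = 3.10e-05, both probe sets), and IL4R, a receptor that IL4 and IL13 share, by 2.24 ± 0.32 (both probe sets). HMOX1, the haem-degrading enzyme that IL10 can induce, named after its value was seen, passed narrowly at 2.59 ± 0.88 (adjusted p = 0.0498), a call lost in 12 of 18 fits that left out 1 array. Against endometritis 10 of 12 rose, with IL1RN at 3.94 ± 0.54 and ETS2 at 4.28 ± 0.46. The list median was 2.46 in mastitis against healthy and 2.45 against endometritis. IL10 itself differed by 0.66 and 0.61 in those comparisons without passing.

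In the IL15 list 3 of 9 measured genes rose and 0 fell in mastitis against healthy, with a median of 1.20. IL2RA, the alpha chain of the related IL2 receptor, rose by 2.80 ± 0.23 (adjusted p = 5.77e-06), and MCL1, a survival factor that IL15 maintains in NK cells, by 2.34 ± 0.39 (adjusted p = 0.000675). IL2RG was the third. The cytotoxic granule genes did not pass. GZMB, granzyme B, was at the floor on 5 of 6 arrays in both groups, and PRF1, perforin, was 1.20 ± 0.60 higher (adjusted p = 0.202). STAT5B, through which IL15 signals, differed by 0.07 ± 0.13 (adjusted p = 0.774). Against endometritis the same 3 genes rose, IL2RA by 2.74 ± 0.23, MCL1 by 1.86 ± 0.39 and IL2RG by 1.60 ± 0.39, and the list median was 0.30.

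**Figure D4:**
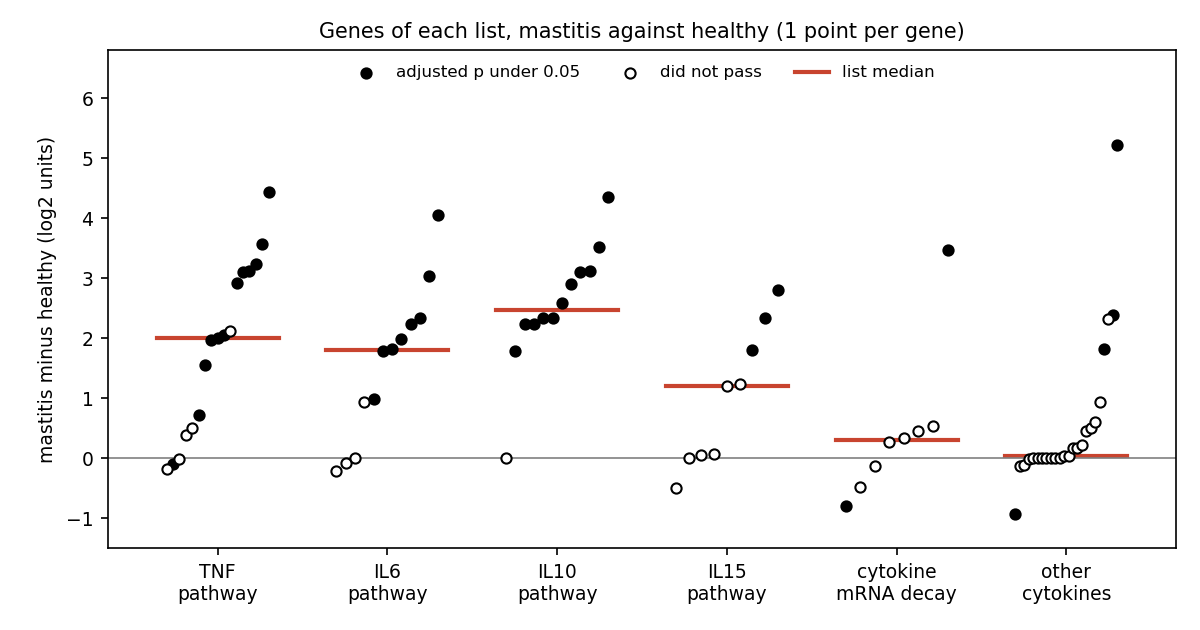
Each point is 1 gene read at 1 probe set, placed by its difference between mastitis and healthy in log2 units. Filled points passed at an adjusted p under 0.05 and red lines are list medians, which run from 2.46 for the IL10 pathway down to 0.04 for other cytokines.

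Cytokine messages such as TNF and IL6 carry AU-rich elements that mark them for decay, and the genes for that decay were read as well. Of 8 measured, ZFP36, which binds those elements and speeds decay, rose by 3.47 ± 0.65 in mastitis against healthy (adjusted p = 0.00146) and by 3.31 ± 0.65 against endometritis (adjusted p = 0.00285). ELAVL1, which stabilises such messages, fell by 0.80 on the log2 scale (SE 0.25, adjusted p = 0.032), a call lost in 7 of 18 fits that left out 1 array. The other 6 did not pass, and the median over all 8 was 0.30. With 1 of 8 higher and 1 of 8 lower, the list was near the 11.3% and 15.8% of all genes. ZC3H12A, an RNase that degrades IL6 message, was 0.54 ± 0.26 higher (adjusted p = 0.181).

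Genes whose pattern was most like a member's were sought by Pearson's r over the 18 arrays among the 6138 other genes above the floor on at least 9 arrays. For IL15 they were FCGR3A, an Fc receptor of NK cells and myeloid cells (r = 0.96, and 0.86 with group means removed), TMEM140 (0.95 and 0.82) and the activin receptor ACVR2B (0.94 and 0.78). IL15 was near background and varied little on healthy (SD 0.05) and endometritis arrays (SD 0.21), against 1.05 in mastitis. FCGR3A was near background there too (means 2.69 and 2.72). The r values of IL15 therefore rest mainly on the mastitis arrays. For IL10 they were C2CD2L (0.84 and 0.83), the immune receptor kinase SYK (0.83 and 0.85) and the homeobox factor HHEX (0.83 and 0.82). C2CD2L read 2.76 ± 0.10 (SD) in mastitis and 2.70 ± 0.08 in healthy, close to the floor. For TNF they were RGS16, a regulator of G protein signalling (0.81 and 0.82), KATNA1 (0.80 and 0.81) and DNAJC24 (0.73 and 0.74). These are the highest of many values over arrays that share their groups, and are given as a description. IL6 was above the floor on too few arrays for this search.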

How the data were processed

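RNA from milk somatic cells was labelled with a 3′ IVT kit from 100 ng of total RNA with an integrity number above 6, and 10 µg were hybridised, per the labels' protocols. Per the submitters' processing notes, RMA, GCRMA and limma were among the tools, without their versions or roles. The authors deposited 1 normalised value per probe set and array, read here as log2 intensity after their background correction and normalisation. The base of the logarithm comes from the range of the values, which ends at 14.2, and every fold rests on it. Raw intensity files were not used here, so other background corrections could not be tried.

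Of 24128 probe sets, 112 controls were left out. By the platform annotation 13292 probe sets carry 1 gene symbol, 86 carry several and 10638 are unnamed here. Where a gene had several probe sets, that of highest mean intensity on all 18 arrays was read. A single limma 3.58.1 model in R 4.3.3 (lmFit, eBayes, two-sided) with a term for each of 3 groups was fitted to all 18 arrays, and p-values were adjusted by Benjamini-Hochberg over all 24016 probe sets. A call is an adjusted p under 0.05. The procedure was tested on simulated data with the same spread in every group and no floor. IL6 and IL15 here had unequal spreads and values near the floor, so that test does not cover their calls. Other settings were a fit of the 12 arrays compared, dim probe sets left out (above the floor on fewer than 6 arrays), a variance trend with robust eBayes, array weights, arrays centred on their median or scaled to hybridisation controls, the GAPDH covariate, and the number in the sample title (up to 120 or above) as a block.

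No 2 arrays were identical (highest correlation 0.984). Precision is limited by having 6 arrays in a group. The members and gene lists were chosen with earlier results of these data known. Named genes are the members, their receptor chains, up to 4 called genes of each list and comparison with the smallest p, and the 3 genes most like each member. Genes named outside that rule are values that did not pass or are marked as named after their value was seen.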

Additional observations from a re-analysis of the deposited data

Results flagged for a closer look

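A check for single arrays far from the rest of their group covered the 4 cytokines and 6 receptor chains in 3 groups, 30 sets of 6 arrays, and marked 2. Chance alone marks about 5% of such sets. TNF was 5.89 on endometritis 5, with the next array of that group at 4.09, and the macrophage marker level was highest of its group there, at 8.05. IL10 was 4.97 on healthy 1, with the next healthy array at 3.93, and the macrophage level was highest of its group there too, at 7.10. The neutrophil level was also highest of its group on healthy 1, at 5.84, and was 4.42 on endometritis 5. Healthy 6 had a macrophage level of 6.96 with IL10 at 3.83. What set these arrays apart was not tested. Without endometritis 5, TNF was lower in endometritis than in healthy by 0.97 on the log2 scale and still did not pass.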

How the results depend on the processing

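IL15 kept its calls in mastitis under every alternative tried. The 8 other settings gave 1.47 to 2.17 against healthy (adjusted p from 0.000261 to 0.0387) and 1.40 to 2.02 against endometritis, and the 18 fits without 1 array gave 1.57 to 2.21 and 1.53 to 2.17. IL6 against healthy passed with dim probe sets left out (1.03), with array weights (1.06) and by the unadjusted exact permutation test (1.03, p = 0.00433), and ran from 0.64 to 1.24 as arrays were left out; of those 18 fits the one without mastitis 1 passed. Its adjusted p over the 8 settings ran from 0.0283 to 0.185. Against endometritis it passed by the unadjusted permutation test alone (0.92, p = 0.013).

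Differences close to 0 turned sign. TNF in mastitis against healthy was -0.062 with arrays centred and -0.062 with the title number as a block, and ran from -0.19 to 0.22 as arrays were left out. In endometritis against healthy IL10 was -0.022 centred, -0.22 with the GAPDH covariate and -0.24 with the title block, and ran from -0.27 to 0.24 without 1 array. IL15 there was -0.032, -0.13 and -0.062 under the same 3 settings, and ran from -0.033 to 0.090. None of these differences passed, and the cause of the turns was not tested.

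Scaling to hybridisation controls moved the median of all probe sets by 0.26 in mastitis against healthy and by 0.16 in endometritis against healthy, and lowered the calls to 2896 and, for mastitis against endometritis, to 1981. The share of called probe sets that were higher went from 52.1% to 68.9% and from 54.9% to 64.5%. The GAPDH covariate left 1428 calls in mastitis against healthy. In endometritis against healthy 1 probe set was called with dim probe sets left out, with a variance trend, with array weights, centred and scaled to controls, and 0 or 1 as arrays were left out. The cause was not tested. A further control signal, dap, read 7.32 ± 0.86 (SD, log2) on healthy, 5.94 ± 0.42 on mastitis and 6.85 ± 0.80 on endometritis arrays. Its highest mastitis value, 6.58, lay below its lowest healthy value, 6.68, while endometritis arrays ran from 5.83 to 7.80. No setting scaled the arrays to dap, so how this control bears on the differences between groups was not tested.

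The count at the floor depends on where the floor lies. Raised by 0.5, it held IL6 on 4 mastitis and 6 endometritis arrays, and IL15 on 6 healthy, 1 mastitis and 6 endometritis arrays. With the lowest value that 2 arrays share as the floor, a choice made after seeing the data, it held TNF on 2 endometritis arrays, IL6 on 1 healthy, 0 mastitis and 3 endometritis arrays, and IL15 on 3 healthy and 4 endometritis arrays. No paired analysis was possible because each cow gave 1 array and the labels give no replicate numbers that groups share. Other background corrections were not run, since they need raw intensities. Signals near the floor understate folds.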

Other observations

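Some of the other cytokine genes were at background in all these milk cells. Of 27 listed beside the 4 members, 24 were measured, and IL2, IL5, IL12A, IL13, IL21 and TGFB3 were at the floor on all 18 arrays. In mastitis against healthy 3 rose, 1 fell and 20 did not pass, beside 11.3% of all genes called higher and 15.8% lower. The list median was 0.04, and -0.01 over all genes. CSF1, the growth factor of macrophages, rose by 5.23 ± 0.56 (limma adjusted p = 3.25e-05, 1 of 2 probe sets), TNFSF13B, a B cell survival factor, by 1.82 ± 0.25 (adjusted p = 0.000203), and IL18, a cytokine activated by the inflammasome, by 2.39 ± 0.60 (adjusted p = 0.0103, and 0.261 with the GAPDH covariate). TGFB2 fell by 0.92 on the log2 scale (SE 0.27, adjusted p = 0.0239), with 3 of 6 mastitis arrays at the floor, and did not pass with arrays scaled to hybridisation controls or with the GAPDH covariate (adjusted p = 0.305).

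Against endometritis 4 of the 24 rose and 0 fell, beside 9.14% and 10.9% of all genes. IL1B, an inflammatory cytokine of macrophages and neutrophils, joined CSF1, TNFSF13B and IL18, at 3.54 ± 0.99 (adjusted p = 0.0238), a call lost in 4 of 18 fits that left out 1 array. IFNG, the interferon of T and NK cells, was above the floor on 15 of 18 arrays and did not pass in either comparison (adjusted p = 0.585 and 0.787). IL17A was above the floor on 2 mastitis arrays and on no other, and IL12B on 3 mastitis arrays and on no other. Neither gene passed (adjusted p = 0.197 and 0.16 in mastitis against healthy).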
